A study of Mus musculus with 9 samples.

Results

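The proteasome genes described here are the 48 gene IDs of the deposited table whose symbol starts with Psm, goes on with a letter from a to g and ends in a number, out of 31964 gene IDs in all. The rule reads names alone. Mouse liver RNA was sequenced as 9 libraries. Group C has replicates 2, 3 and 4, group A-C has replicates numbered 6, 9 and 12, and group M has those numbered 24, 26 and 27. The study is described as a test of magnesium isoglycyrrhizinate (MgIG), a salt made from the liquorice compound glycyrrhizin, in the NIAAA mouse model, where a liquid diet that contains alcohol injures the liver. What diet or drug each group letter means is not in the labels, which also give no age, sex or genotype, so the groups were compared by letter. The strain is given as C57BL6J for 8 samples and as C57BL7J for C replicate 4. The tissue is given as liver and the cell type as hepatocyte. No label ties the samples of a group to separate animals. The p-values therefore measure the spread between these samples alone, which may be technical.

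The proteasome is the protease that degrades ubiquitin-tagged proteins in the cytosol and nucleus. Its 20S core is a barrel of alpha rings, which gate the entrance, and beta rings, of which Psmb5, Psmb6 and Psmb7 carry the constitutive active sites. A 19S particle caps the core: its ATPases (Psmc genes) unfold the substrate and feed it in, and its non-ATPase subunits (most Psmd genes) bind ubiquitin chains and remove them. Interferon gamma is known to induce Psmb8, Psmb9 and Psmb10, which replace the constitutive active sites in the immunoproteasome, and the PA28 activator genes Psme1 and Psme2. Peptides cut by these forms are shown on MHC class I molecules. In stressed mammalian cells the transcription factor encoded by Nfe2l1 is known to raise the proteasome genes together.

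Levels below are TPM (reads per base of exon, set to a common total in each library) after scaling between libraries by TMM, and group values are mean ± SD (n = 3). Changes are log2 fold changes of scaled TPM + 1 with their standard error (SE). The p-values are from limma and were adjusted over the 11086 genes tested. A gene was called when its adjusted p was under 0.05. The reads recovered from the TPM came to 45597163 to 65165613 per library. The share of TPM from mitochondrially encoded genes was 27.6% in C replicate 2 and between 11.98% and 15.4% in the other 8 libraries. A sum of 20 acute phase genes took 2.23% to 2.92% of the TPM in C libraries, 3.64% to 21.4% among A-C libraries and 4.51% to 16.1% among M libraries. Hepatocyte markers summed to between 85410 and 146200, but markers of Kupffer, endothelial, stellate and erythroid cells were also present in each library, so the RNA was not of hepatocytes alone. In such bulk RNA fewer cells of a type and less RNA per cell cannot be told apart.

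Of the 48 genes 46 were at a TPM of at least 1 in all 9 libraries and were tested. The other two are forms of other organs: Psma8, a testis alpha subunit, lay between 0.274 and 1.14 scaled TPM, and Psmb11, the thymus beta subunit, was at 0 in 8 libraries and at 0.00734 in A-C replicate 6. In C the mean scaled TPM of the tested members ran from 5.28 for Psmd10 to 199 for Psmb5, with a median of 52.2, against a median of 7.07 over all tested genes. The beta ring had a median of 107, the alpha ring 76.2, the 19S ATPases 72.8 and the 19S non-ATPase subunits 35.6. Psmb10 stood at 49.1 ± 5.62 in C, Psmb8 at 16.3 ± 2.46 and Psmb9 at 8.76 ± 0.480. Within C, replicate 2 was the lowest of the 3 libraries for most members, and its median member lay 0.23 log2 below the mean of C. The median coefficient of variation of the members was 14.8% in C, 6.36% across A-C and 7.84% across M, and that of all tested genes was 13.2%, 17.7% and 17.0%.

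**Figure D1:**
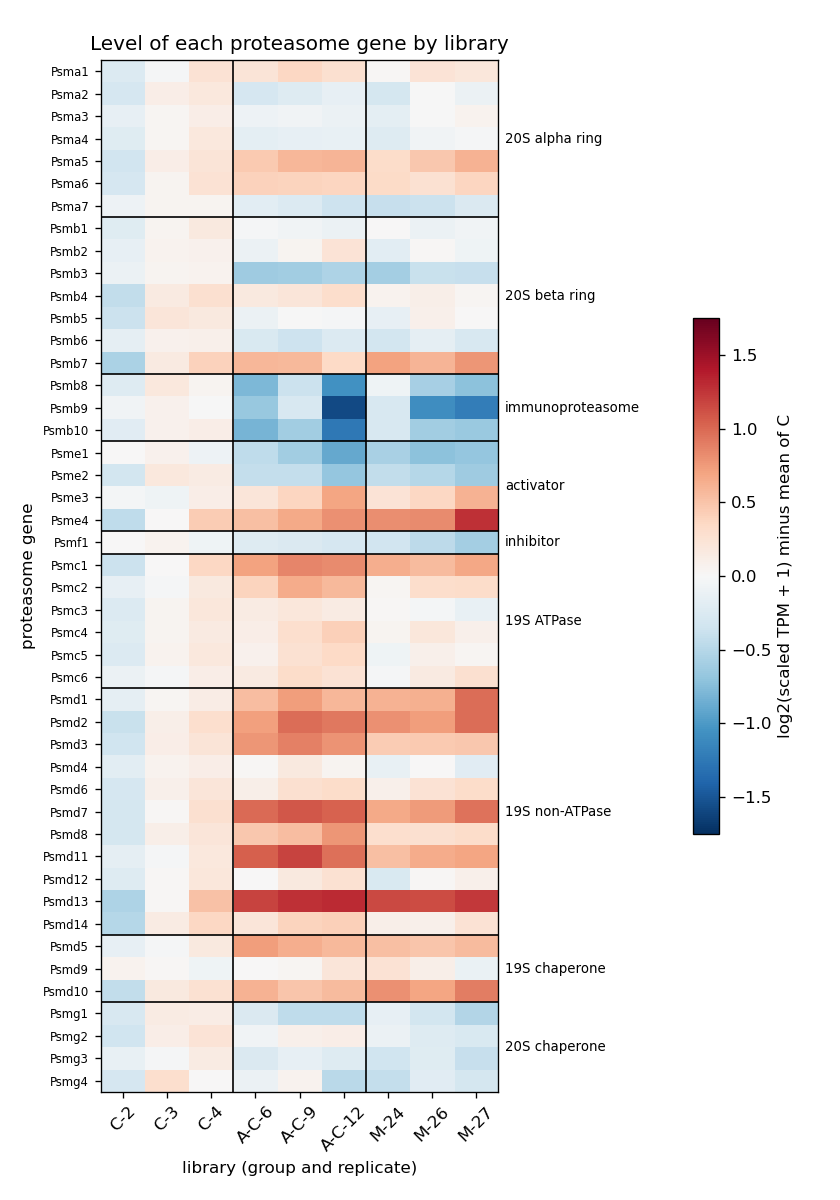
The colour shows log2(scaled TPM + 1) of each of the 46 tested proteasome genes (rows, grouped by role) in each library (columns), minus the mean of the 3 C libraries. The 19S non-ATPase rows had a median of 0.54 to 0.77 in the A-C libraries and 0.45 to 0.47 in the M libraries, and the immunoproteasome rows had a median of -1.25 to -0.38 across A-C and -0.72 to -0.28 across M.

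Group A-C was compared with group C first. Genes of the 19S particle rose in A-C: 9 of 17 were higher, 0 lower and 8 did not pass. The constitutive 20S core had 0 of 14 members higher and 1 lower, and of the 3 immunoproteasome genes Psmb10 was lower. Over all tested members 10 were higher and 3 lower (21.7% and 6.52%), where 9.71% of all tested genes were higher and 7.17% lower. The 10 were 9 subunits of the 19S particle and Psmd5, a chaperone of its assembly. The median log2 change was 0.54 over the 17 subunits of the 19S particle, -0.05 over the 14 of the 20S core, -0.84 over the 3 immunoproteasome genes and 0.03 over all tested genes. Without C replicate 2, the library with the high mitochondrial share, the first 3 of these were 0.44, -0.16 and -0.87. Between the groups 16 members were higher and 10 lower without overlap, where 22.8% and 18.4% of all tested genes were so placed. Without C replicate 3 the calls were 3 higher (Psmd3, Psmd7 and Psmd11) and 0 lower, and without A-C replicate 9 they were 4 higher (Psmd5, Psmd7, Psmd11 and Psmd13) and 1 lower. Over all tested genes the same fits gave 205 higher and 126 lower, and 257 and 194. Without C replicate 4, 11 members were higher, Psme4 among them, and 1 lower.

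Among the 11 non-ATPase subunits of the 19S particle 7 were higher, with a median log2 change of 0.62 (0.54 without C replicate 2). Psmd13, a subunit of the lid, the part that holds the enzyme removing ubiquitin chains, had the largest change of all members. It stood at 12.5, 18.8 and 26.9 in C, at 43.4, 46.1 and 47.4 across A-C and at 42.4, 41.9 and 44.97 across M, in the order of replicates given above. All 6 libraries of A-C and M lay above the 3 of C, and A-C was 1.26 log2 above C (SE 0.23, adjusted p = 0.0114, and 0.0515 without C replicate 3). Psmd13 (ENSMUSG00000025487) lies on chromosome 7, 140881968 to 140898643, on the plus strand of mm10. On the opposite strand 342 bases of its exons, 10.1% of them, are also exons of Sirt3, and since the use of strand in the counting is not given, reads there cannot be told apart.

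The lid gene Psmd11 (ENSMUSG00000017428, chromosome 11, 80428615 to 80473248), a scaffold of the lid, was at 16.4, 18.1 and 20.9 in C and at 39.0, 43.2 and 36.9 in A-C. The groups did not overlap, and the change of 1.07 log2 (SE 0.13, adjusted p = 0.00353) was called in all 9 fits with a library left out. Psmd7, the inactive partner of the deubiquitinase Psmd14, was at 28.3, 35.7 and 42.8 in C and at 70.8, 75.5 and 72.7 in A-C. Its change was 1.04 log2 (SE 0.16, adjusted p = 0.00728), also called in all of those 9 fits. Psmd14 itself stood at 33.5 ± 2.58 against 27.01 ± 8.04 in C and did not pass (adjusted p = 0.266).

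The large scaffold subunits of the base were both higher: Psmd2 was at 34.4, 48.8 and 56.1 in C and at 75.7, 90.4 and 87.2 in A-C (adjusted p = 0.0186), and Psmd1 rose from 15.8 ± 1.68 to 24.8 ± 1.85 (adjusted p = 0.0236). The lid genes Psmd3 and Psmd8 were higher too, the former at 38.7 ± 1.66 against 21.9 ± 4.65 and the latter at 88.1 ± 9.86 against 58.5 ± 10.7 (adjusted p = 0.0137 and 0.0363). Not all of the particle moved by the same size. Psmd4, a ubiquitin receptor, was at 70.3, 83.2 and 86.6 in C and at 80.8, 89.8 and 82.7 in A-C, so the groups overlapped (log2 change 0.08, adjusted p = 0.697). The lid genes Psmd6 and Psmd12 had log2 changes of 0.23 and 0.15 that did not pass (adjusted p = 0.321 and 0.542). Of the 9 fits with a library left out, the call of Psmd2 held in 7, that of Psmd3 in 8, that of Psmd1 in 6 and that of Psmd8 in 3.

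Of the 6 ATPases, which form the ring that pulls substrates into the core, 2 were higher and 4 did not pass (median 0.26). Psmc1 was at 58.1, 75.8 and 97.8 in C and at 124, 137 and 135 in A-C (log2 change 0.79, adjusted p = 0.0229), and this call did not hold without C replicate 3 or A-C replicate 9. Psmc2 stood at 31.0 ± 3.51 in C and 45.3 ± 4.26 in A-C (adjusted p = 0.0347), a call lost in 5 of the 9 fits with a library left out. Psmc3, Psmc4, Psmc5 and Psmc6 had fitted changes of 0.17 to 0.28 log2 with adjusted p of 0.211 to 0.436. Among the 3 chaperones that assemble the base of the 19S particle, Psmd5 was at 4.86, 5.36 and 6.24 in C and at 9.69, 9.06 and 8.58 in A-C (log2 change 0.64, SE 0.12, adjusted p = 0.0114). Psmd10, also known as gankyrin, stood at 7.99 ± 0.375 against 5.28 ± 1.52 (adjusted p = 0.0636) and Psmd9 at 12.9 ± 1.07 against 12.1 ± 0.647 (adjusted p = 0.675).

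**Figure D2:**
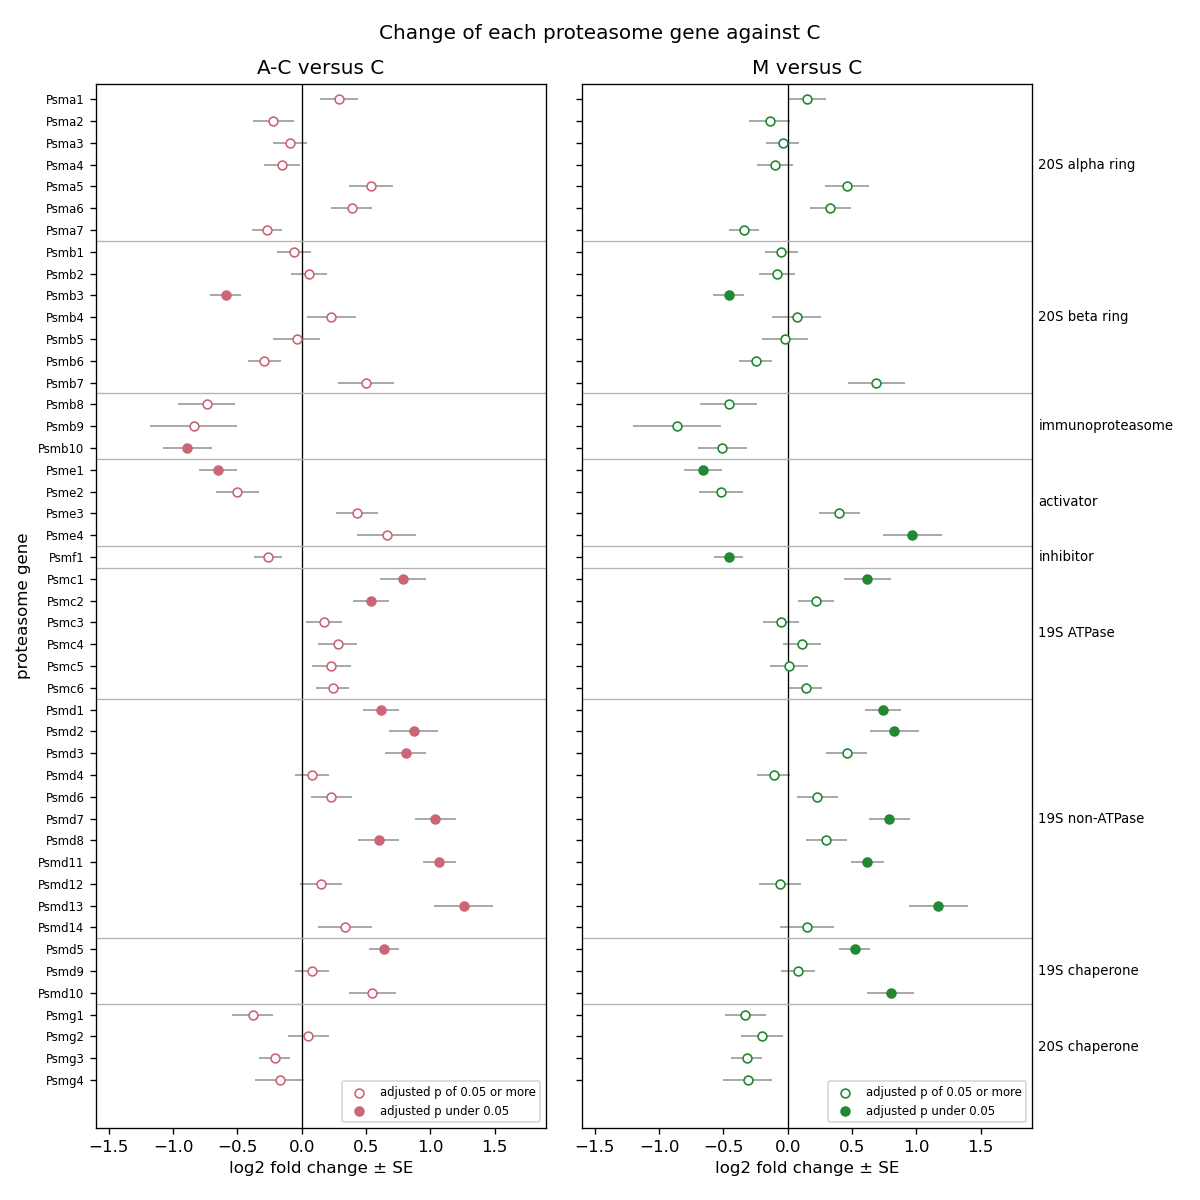
Each point is the log2 fold change of a proteasome gene with its SE as a bar, for A-C versus C on the left and M versus C on the right, grouped by role, and filled points have an adjusted p under 0.05. Filled points above 0 lie among the 19S genes and their chaperones, apart from Psme4 in M versus C, and filled points below 0 are Psmb3, Psmb10 and Psme1 on the left and Psmb3, Psme1 and Psmf1 on the right.

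In the 20S core the members went both ways. The alpha ring had 0 of 7 called and fitted changes between -0.27 and 0.54 log2. Psma5 was at 51.6, 71.1 and 76.8 in C and at 90.4, 98.2 and 99.5 in A-C without overlap (adjusted p = 0.0563), and Psma7 had 76.2 ± 4.77 in A-C against 91.9 ± 5.13 (adjusted p = 0.153). In the beta ring Psmb3, a subunit without an active site, was lower: 99.8, 110.5 and 111.5 in C against 69.1, 69.8 and 73.4 in A-C (log2 change -0.59, SE 0.12, adjusted p = 0.0166, and 0.0693 in the TPM as deposited). The active-site genes Psmb5, Psmb6 and Psmb7 stood at 190 ± 7.43 against 199 ± 42.5, at 134 ± 6.15 against 164 ± 15.8 and at 35.8 ± 3.25 against 25.97 ± 8.47, and none of them passed (adjusted p = 0.889, 0.150 and 0.149). Exons of Psmb7 share 405 bases with Nek6 on the opposite strand, 11.8% of their length, and the mean TPM of Nek6 was 7.04 in C and 13.6 in A-C. Without scaling, in the TPM as deposited, the change had a median of 0.22 over all tested genes, 0.18 over the 20S core and 0.76 over the 19S particle, and the fitted sign of Psma2, Psma3, Psma4, Psmb1, Psmb5 and Psmg4 turned positive. These unscaled values called 18 members higher and 1 lower, of which 13 of the 18 were 19S genes or their chaperones.

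A ratio of TPM within a library does not depend on the scaling. The median TPM of the 17 genes of the 19S particle was 0.480, 0.500 and 0.555 times that of the 14 genes of the 20S core in C. For A-C it was 0.732, 0.798 and 0.851, and for M it was 0.734, 0.728 and 0.748. All libraries of A-C and M lay above the 3 of C (0.512 ± 0.0389 in C, 0.794 ± 0.0595 across A-C and 0.737 ± 0.0103 across M). No p is given for this ratio, which is a summary over the members.

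**Figure D3:**
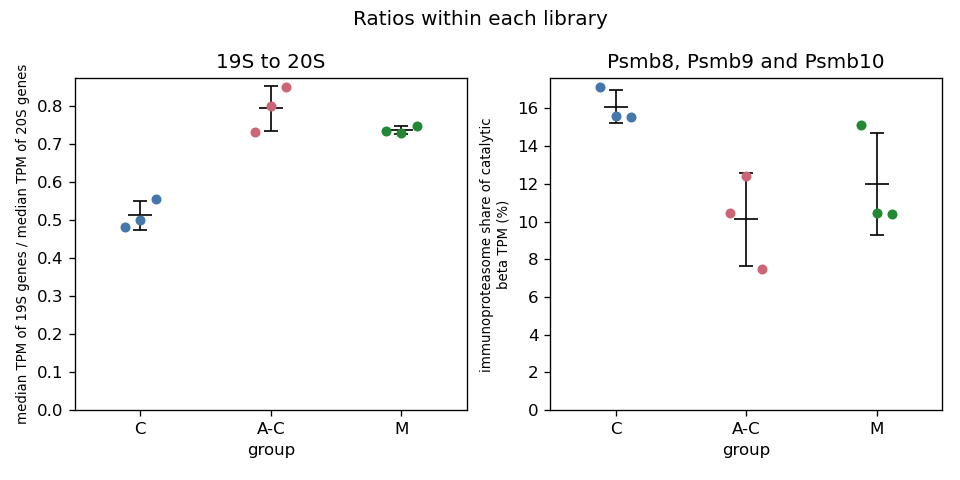
Points are libraries, lines the mean and bars the SD (n = 3 per group); the left panel shows the median TPM of the 17 genes of the 19S particle over that of the 14 genes of the 20S core, and the right panel the share of Psmb8, Psmb9 and Psmb10 in the TPM summed with Psmb5, Psmb6 and Psmb7. On the left the C libraries lie at 0.480 to 0.555 and the others at 0.728 to 0.851; on the right C lies at 15.5% to 17.1%, A-C at 7.47% to 12.4% and M at 10.4% to 15.1%.

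The promoters of the largest risers are shown because the antioxidant response element, to which the Nfe2l1 protein is known to bind in other proteasome genes, was searched in them. The windows are from RefSeq on GRCm38.p6, from 250 bases before the RefSeq gene start to 50 after it, and 40 of the 48 genes have one. That start can differ from the gene coordinates given in this text. The Psmd13 window begins at 140882144, inside the gene as given from 140881968, so bases before 140881968 were not searched. The windows of Psmb8, Psmb9, Psmb11, Psmd5, Psmd9, Psme1 and Psmf1 likewise lie inside their genes, so the bases before those gene starts were not searched. Capitals would mark that element, searched as TGACNNNGC on both strands, or the interferon response core, searched on both strands as a pair of GAAA blocks with any 2 bases between them. The windows of Psmd13 and Psmd11, printed here, hold no match.
Psmd13 (chr7:140882144-140882443, plus strand): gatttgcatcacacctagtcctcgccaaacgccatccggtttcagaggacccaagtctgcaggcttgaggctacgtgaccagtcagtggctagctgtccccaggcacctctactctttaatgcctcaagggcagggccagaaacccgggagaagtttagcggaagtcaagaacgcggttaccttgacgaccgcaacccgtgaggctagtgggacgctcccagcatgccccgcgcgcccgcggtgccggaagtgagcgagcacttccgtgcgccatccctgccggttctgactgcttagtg
Psmd11 (chr11:80428365-80428664, plus strand): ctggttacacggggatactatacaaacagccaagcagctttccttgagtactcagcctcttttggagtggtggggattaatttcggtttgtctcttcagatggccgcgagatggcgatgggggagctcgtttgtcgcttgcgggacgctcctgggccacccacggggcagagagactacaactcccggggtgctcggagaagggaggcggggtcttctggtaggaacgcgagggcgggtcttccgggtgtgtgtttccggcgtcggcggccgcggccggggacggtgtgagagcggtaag
TGACNNNGC was found in 6 of the 40 genes with a window, and in 12.4% of 32851 promoter windows of the genome. It was in 0 of the 8 genes with a window that were called higher in A-C, which says only that these letters are absent from these 300 bases. For Psmd5 and Psmd13 among them those bases lie inside the gene. The 6 genes were Psmb5, Psmb6, Psmc6, Psmd9, Psmd12 and Psme4, none of them called in A-C versus C. The matches of the constitutive active-site genes and of Psme4, which encodes the activator PA200, lie close to the gene start and are printed with the element in capitals, which in Psme4 is on the other strand.
Psmb5 (chr14:54618019-54618057, minus strand): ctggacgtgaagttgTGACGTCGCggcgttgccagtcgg
Psmb6 (chr11:70525333-70525371, plus strand): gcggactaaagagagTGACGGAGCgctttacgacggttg
Psme4 (chr11:30771753-30771791, plus strand): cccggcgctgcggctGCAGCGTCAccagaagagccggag

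The interferon-inducible genes lay lower in A-C than in C. Psmb10 (ENSMUSG00000031897, chromosome 8, 105935735 to 105938444, minus strand), the immunoproteasome counterpart of Psmb7, was at 42.6, 51.4 and 53.1 in C and at 27.4, 31.7 and 19.9 in A-C. The groups did not overlap, and the change was -0.89 log2 (SE 0.19, adjusted p = 0.0184), and the call did not hold without C replicate 3 (adjusted p = 0.0744) or without C replicate 4. Psmb8, the counterpart of Psmb5, was at 13.6, 18.5 and 16.8 in C and at 8.94, 12.2 and 7.23 in A-C, also without overlap. Its log2 change of -0.74 had an adjusted p = 0.0508, over 0.05 as fitted, and the call was made by limma-voom on the recovered reads, at a TPM minimum of 5 and without M replicate 24. Psmb9, the counterpart of Psmb6, was at 8.32, 9.27 and 8.69 in C and at 5.14, 7.04 and 2.27 in A-C. Here A-C replicate 12 was the lowest, and the change of -0.84 log2 did not pass (adjusted p = 0.111).

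Both PA28 genes lay below C as well. Psme1 (ENSMUSG00000022216, chromosome 14, 55578123 to 55581529), which encodes the alpha subunit of PA28, was at 124, 130 and 116 in C and at 90.1, 79.9 and 65.4 in A-C (log2 change -0.65, SE 0.15, adjusted p = 0.021, and 0.0653 in the TPM as deposited). Psme2, which encodes the beta subunit, was at 87.1, 123.5 and 120 in C and at 80.9, 81.4 and 67.97 in A-C, without overlap and without a call (log2 change -0.50, adjusted p = 0.0652). The activators that interferon gamma is not known to induce had fitted changes of the opposite sign and no call: Psme3, of the nuclear activator PA28 gamma, stood at 39.7 ± 7.05 against 29.0 ± 2.26 (adjusted p = 0.0956), and Psme4 at 23.3 ± 2.25 against 14.8 ± 4.76 (adjusted p = 0.0717). The 4 chaperones of 20S assembly (Psmg1 to Psmg4) and the inhibitor gene Psmf1 had fitted changes between -0.38 and 0.05 log2 and no call.

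**Figure D4:**
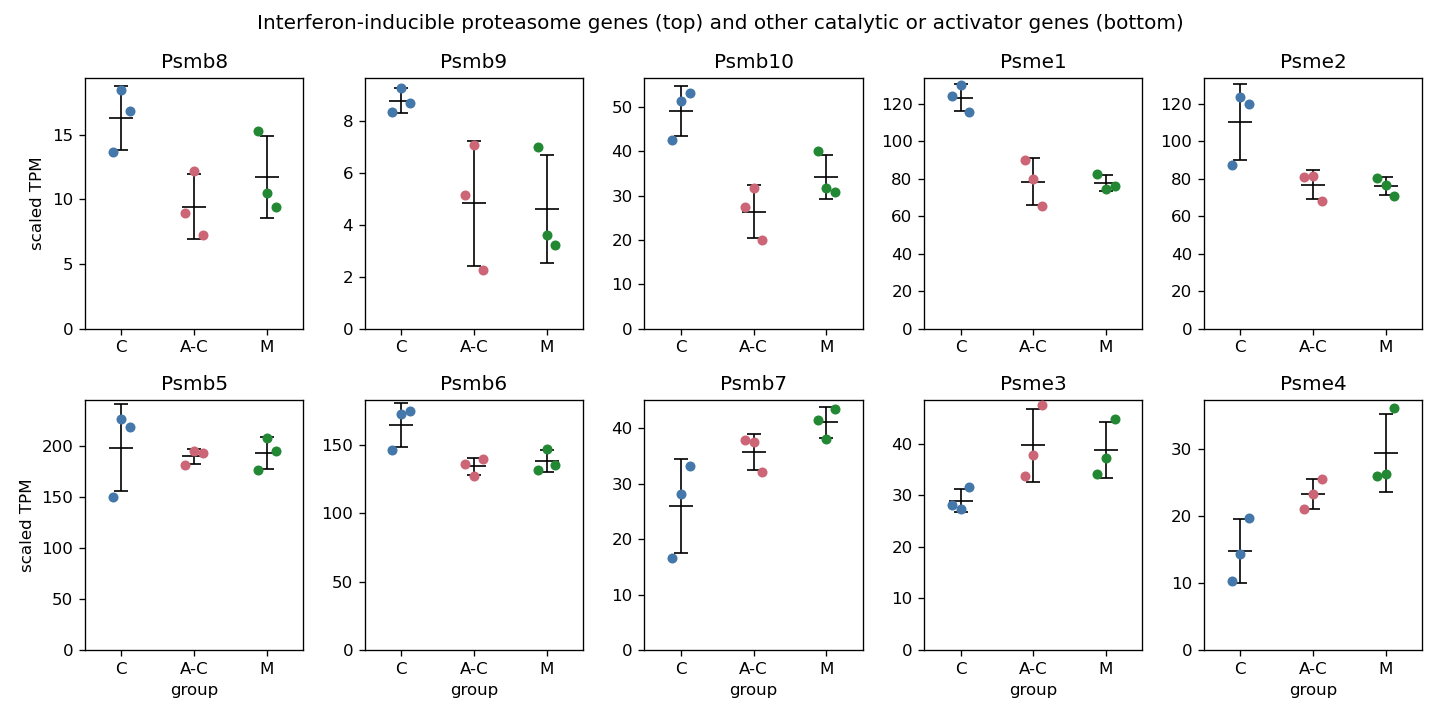
Scaled TPM of the interferon-inducible proteasome genes (top row) and of the constitutive active-site genes with Psme3 and Psme4 (bottom row), with a point per library and the mean ± SD (n = 3) in black. Each A-C point lies below each C point in the top row, and M replicate 24 is the highest M library for all 5 of these genes.

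Set against its constitutive partner within each library, Psmb10 was at 256%, 184% and 160% of the TPM of Psmb7 in C, at 72.6%, 84.5% and 62.3% across A-C and at 96.3%, 83.4% and 70.9% across M. The order of these genes thus turned, with Psmb10 above Psmb7 in each C library and below it in each of the other 6. Psmb7 was fitted 0.50 log2 above C in A-C and 0.69 in M, without a call (limma adjusted p = 0.149 and 0.0638). Its exons overlap those of Nek6, as given above. Psmb10 and Psmb7 thus both enter the change of their ratio. The log2 ratio was 1.43 lower in A-C than in C (difference -1.43) and 1.24 lower in M than in C (difference -1.24), each with p = 0.1 by a two-sided exact permutation test, the smallest p that 3 against 3 allows, and an adjusted p of 0.3 over 9 such tests. Psmb8 was at 8.29 ± 0.725% of Psmb5 in C, 4.97 ± 1.26% across A-C and 6.17 ± 2.17% across M (exact permutation p = 0.1 between A-C and C, 0.3 adjusted over the 9 tests, and p = 0.3 between M and C, 0.45 adjusted). Psmb9 was at 5.35 ± 0.353% of Psmb6 in C, 3.65 ± 1.96% across A-C and 3.39 ± 1.68% across M (exact permutation p = 0.3 and 0.2, both 0.45 adjusted). As a share of the TPM summed over both sets of active-site genes, the immunoproteasome genes took 16.1 ± 0.884% in C, 10.1 ± 2.48% across A-C and 11.99 ± 2.72% across M. By library the share was 10.5%, 12.4% and 7.47% for A-C, where the acute phase genes took 3.64%, 8.63% and 21.4% of the TPM. For M it was 15.1%, 10.4% and 10.4%, beside acute phase shares of 4.51%, 16.1% and 12.1%. The part of the acute phase response in the immunoproteasome share was not tested.

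The interferon response core was found in the windows of Psme1, Psmb3, Psmd4, Psmd9 and Psmg4, 5 of 40 genes, against 3.44% of the 32851 promoter windows. Of the 3 genes called lower in A-C, Psmb3 and Psme1 hold it in their windows and Psmb10 does not. The windows of Psmb8 and Psmb9 do not hold it either. Both lie inside their genes, so the bases before those gene starts were not searched. The matches of Psme1 and Psmb3 are printed with the core in capitals, which reads TTTC since it is on the other strand.
Psme1 (chr14:55578488-55578527, plus strand): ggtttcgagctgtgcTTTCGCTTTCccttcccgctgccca
Psmb3 (chr11:97703256-97703295, plus strand): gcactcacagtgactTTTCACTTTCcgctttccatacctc

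The second comparison set M against C, with the same C libraries, so its results are not independent of the first. Again the genes called higher were mostly of the 19S particle: 6 of 17 subunits were higher, 0 lower and 11 did not pass. Psmd5, Psmd10 and Psme4 were also higher, which made 9 of 46 higher and 3 lower (19.6% and 6.52%), where 9.31% of all tested genes were higher and 6.72% lower. Without overlap 15 were higher and 8 lower, against 23.7% and 17.9% of all tested genes. The median log2 change was 0.23 over the 19S particle, -0.04 over the 20S core, -0.51 over the immunoproteasome genes and 0.05 over all tested genes. Without C replicate 2 the first 3 of these were 0.14, -0.15 and -0.61. The calls were 0 higher and 0 lower when C replicate 3 or M replicate 27 was left out, 2 and 0 without M replicate 26, and 3 and 1 without C replicate 2. Without C replicate 4 they were 10 and 1, without A-C replicate 9 they were 8 and 1, and without A-C replicate 12 they were 9 and 6. Over all tested genes the fit without M replicate 27 called 121 higher and 70 lower, and that without C replicate 3 called 129 and 75. In the TPM as deposited 16 members were higher and 0 lower, beside a median change of 0.27 over all tested genes.

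Psmd13 again had the largest change (1.17 log2, SE 0.23, adjusted p = 0.0158, and 0.0733 without M replicate 27). Psmd2 was at 80.1, 76.0 and 90.2 in M (adjusted p = 0.0233) and Psmd7 at 55.9, 59.7 and 68.7 (adjusted p = 0.0189), each above all 3 C libraries. Psmd1, Psmd11 and Psmc1 rose by 0.74, 0.62 and 0.62 log2 (adjusted p = 0.0162, 0.0189 and 0.0493), and the call of Psmc1 was also lost with median-of-ratios scaling. Psmd10 was at 9.74, 8.92 and 10.46 in M against 3.55, 5.92 and 6.38 in C (log2 change 0.80, adjusted p = 0.0231), and Psmd5 at 8.28 ± 0.258 against 5.49 ± 0.699 (adjusted p = 0.023). Psme4 was at 25.9, 26.3 and 36.0 in M against 10.3, 14.3 and 19.8 in C (log2 change 0.97, adjusted p = 0.0247). The M libraries lay above the C libraries for each of these 9 genes. In the 9 fits with a library left out the call of Psmc1 held in 2, and those of the other 8 genes held in 5 to 7.

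The members lower in M were Psme1 at 77.6 ± 4.24 against 123.1 ± 7.15 (log2 change -0.66, adjusted p = 0.023), Psmb3 at 77.7 ± 5.91 against 107 ± 6.51 (adjusted p = 0.0375) and Psmf1. Psmf1 encodes PI31, a proteasome-binding protein first described as an inhibitor, and was at 9.99, 10.4 and 9.35 in C, 8.34, 8.10 and 7.86 across A-C and 7.66, 6.92 and 6.25 across M (log2 change of M against C -0.46, SE 0.11, adjusted p = 0.0286). None of these 3 calls held in the TPM as deposited, and with a library left out they held in 5, 2 and 3 of 9 fits. Psmb10 stood at 34.2 ± 5.04 in M and did not pass against C (adjusted p = 0.0909), nor did Psmb8 at 11.7 ± 3.15 (adjusted p = 0.176), Psmb9 at 4.61 ± 2.08 (adjusted p = 0.106) or Psme2 at 75.9 ± 4.88 (adjusted p = 0.0626). Psmb8 was at 15.3 in M replicate 24, within the range of C, and at 10.49 and 9.40 in the other two M libraries. Without A-C replicate 12, 3 further members were called lower in M: Psmb9, Psmb10 and Psme2. Of the 10 members higher in A-C and the 9 higher in M against the shared C libraries, 7 were the same genes (70.0% and 77.8% of each list): Psmc1, Psmd1, Psmd2, Psmd5, Psmd7, Psmd11 and Psmd13.

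The third comparison set M against A-C, which tests directly whether these groups differed. No member passed limma, where 0.0361% of all tested genes were higher and 0.135% lower. Psmd11 and Psmd3 had an unadjusted p under 0.05, and limma-voom on the recovered reads also called 0. The 17 genes of the 19S particle had a median log2 change of -0.19, with 16 of them fitted below 0 and Psmd1 above it, beside 0.02 over all tested genes. In the TPM as deposited their median was -0.15 beside 0.06, and the fitted sign of Psmd2 and Psmd6 turned. Psmd11 was at 27.04, 29.4 and 30.4 in M against 39.0, 43.2 and 36.9 in A-C (log2 change -0.44, SE 0.13, adjusted p = 0.251), which places M between C and A-C without overlap with either. Psmd3 was at 29.8, 30.0 and 30.3 in M and likewise lay between the groups (log2 change against A-C -0.36, SE 0.16, adjusted p = 0.434). The groups did not overlap for 12 members lower and 3 higher in M, of 46, where 8.52% and 7.69% of all tested genes were so placed. A p over the threshold does not show that M and A-C have the same levels.

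Genes that act with the proteasome under other names were read from whole lists, with the members that did not pass counted too. Of 16 tested partner genes 5 were higher in A-C than in C and 0 lower (median 0.14 log2), and 3 were higher in M (median 0.24). Of all tested genes 9.71% were higher in A-C and 7.17% lower, and 9.31% were higher in M. Adrm1, which encodes the ubiquitin receptor of the 19S base, was at 22.4, 26.4 and 27.2 in C, 41.8, 48.7 and 46.6 across A-C and 30.9, 38.6 and 38.5 across M (adjusted p = 0.0092 for A-C and 0.047 for M). Of the genes of shuttle proteins that carry ubiquitinated substrates, Ubqln1 rose from 42.1 ± 4.83 to 79.9 ± 2.91 and Rad23b from 55.1 ± 9.01 to 83.7 ± 6.52 (adjusted p = 0.00546 and 0.0303), while Ubqln2 and Ubqln4 had log2 changes of 0.47 and 0.16 that did not pass (adjusted p = 0.0631 and 0.443). Zfand2a, an arsenite-inducible gene of a proteasome-binding protein, rose from 3.50 ± 1.06 to 8.79 ± 0.792 (adjusted p = 0.00864). Pomp, the main chaperone of 20S assembly, and Sem1, a small lid subunit, stood at 46.4 ± 3.04 against 51.6 ± 9.62 and at 25.5 ± 1.56 against 33.6 ± 5.81 (adjusted p = 0.56 and 0.104).

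Among 7 tested regulators of proteasome genes 1 was higher in A-C and 3 were higher in M, with 0 lower. The shares of all tested genes that were higher were 9.71% in A-C and 9.31% in M. Nfe2l1 was at 28.2, 26.7 and 28.8 in C, 65.1, 65.9 and 55.8 across A-C and 51.2, 49.5 and 61.4 across M. It changed by 1.13 log2 in A-C (adjusted p = 0.00318) and 0.92 in M (adjusted p = 0.00676), and neither call was lost in any of the 9 fits with a library left out. Its relative Nfe2l2, which encodes NRF2, stood at 23.2 ± 6.20 in A-C against 29.7 ± 6.52 (adjusted p = 0.281). Ngly1 and Vcp, which encode an enzyme and an ATPase known to act on the Nfe2l1 protein before it enters the nucleus, rose in M by 0.47 and 0.72 log2 (adjusted p = 0.0365 and 0.0404) and had adjusted p = 0.0551 and 0.0901 in A-C. With a library left out, the calls in M of Adrm1, Ngly1 and Vcp held in 2, 2 and 4 of 9 fits, and that of Rad23b in A-C held in 5.

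The 10 genes of MHC class I presentation had 1 higher and 1 lower member in A-C (median -0.07). Limma called none of them in M, where 9.31% of all tested genes were higher and 6.72% lower. For A-C these shares were 9.71% and 7.17%, near the counts of 1 in 10. B2m, the light chain of class I molecules, fell from 5832 ± 543 to 3388 ± 778 (adjusted p = 0.0331), and the heavy chain gene H2-D1 rose from 473 ± 12.7 to 689 ± 45.7 (adjusted p = 0.0275). Tap1, the peptide transporter gene next to Psmb9, with which it shares 212 bases of exon on opposite strands, stood at 4.15 ± 0.185 in A-C against 5.42 ± 1.07 (adjusted p = 0.252). Of 6 interferon regulators Irf7 was lower in A-C (8.06 ± 3.48 against 20.7 ± 6.35, adjusted p = 0.0397) and Irf1 higher in M (14.9 ± 4.71 against 8.30 ± 0.855, adjusted p = 0.0495). Each of these calls was lost in some of the 9 fits with a library left out: B2m kept its call in 3, H2-D1 in 5, Irf7 in 2 and Irf1 in 2.

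Immune cells carry much immunoproteasome, so their markers were set beside Psmb8, Psmb9 and Psmb10. As shares to read beside the counts below, 9.71% of all tested genes were called higher and 7.17% lower in A-C. For M against C these shares were 9.31% and 6.72%. The 5 pan-leukocyte markers summed to 21.2 to 21.9 scaled TPM in C, 21.3 to 27.2 across A-C and 18.2 to 21.7 across M, with 1 of 4 tested members higher and 0 lower in each comparison with C. The 7 B and plasma cell markers summed to 34.3 to 47.0 in C, 7.76 to 9.06 across A-C and 5.95 to 10.1 across M, with all 3 tested members lower in each. Of that list Igkc made up most, and Ms4a1 was at 0 in C replicate 2 and at 0.121 or less elsewhere. The 5 dendritic cell markers summed to 2.19 to 2.38 in C, 1.03 to 2.41 across A-C and 1.58 to 1.86 across M, and 0 of them reached the test. The 5 T and NK cell markers found of 6 summed to 2.29 to 3.80 in C, 0.755 to 2.87 across A-C and 1.25 to 1.91 across M. Of these 1 was tested, without a call. The 6 Kupffer and macrophage markers summed to 82.0 to 112 in C and to 121.5 to 182 in A-C, with 2 of 6 higher in A-C. The 5 neutrophil markers summed to 0.986 to 5.80 in C, and their sums reached 54.7 among A-C libraries (from 3.44) and 59.0 among M libraries (from 4.18), with 0 of 3 tested members called by limma. The Kupffer, endothelial and stellate sums lay above C without overlap in A-C, as did the Kupffer and endothelial sums in M. Among all tested genes, taken singly, 22.8% lay above C without overlap in A-C and 23.7% in M. The 6 endothelial markers ranged from 34.2 to 54.1 in sum among C libraries, from 106 to 114 among A-C and from 54.5 to 83.6 among M, with 5 of 6 higher across A-C and 2 across M. The 6 stellate cell markers had sums of 80.3 to 128 in C against 130 to 156 in A-C, with 1 of 6 higher, and of 93.2 to 107 in M, within the range of C. The part of these cells in the changes of the proteasome genes was not tested.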

How the data were processed

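RNA came from mouse liver by Trizol and was sequenced after preparation with a vendor's kit (labels' protocols). The genome build was mm10, per the submitters' processing notes. Which aligner and counter were used, and whether strand counted, is not given in the sources used here. What the authors deposited is 1 table of TPM. Of its 32248 lines, 452 repeat 168 gene IDs, none of them a proteasome gene, and 1 line per gene ID was kept (31964). Reads were recovered because TPM multiplied by exon length moves in steps of 1 read within a library (99.965% to 100% of values within 0.1 of a whole number).

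TMM factors from these reads (trims of 30% and 5%) rescaled the TPM, with divisors between 0.867 and 1.10. A gene was tested at a TPM of at least 1 in at least 3 of 9 libraries. The test was limma 3.58.1 (R 4.3.3), fitted to log2 of scaled TPM + 1 over 9 libraries with 6 residual degrees of freedom, trend and robust settings, and Benjamini-Hochberg adjustment at 0.05. It was also run on simulated data with independent noise for each gene. Those data hold no effects shared by the genes of a library, so that run does not cover such effects. Each pair of libraries differed beyond sampling noise in at least 2349 genes. Genes named are the members, and from 5 lists of other genes those that were called or anchor their list (Paaf1 was not matched); results of some listed genes are not reported here. The members and lists were chosen with earlier results of these data known. The labels give no batch, so handling cannot be told apart from the groups. Alternatives were other scaling, pseudocounts and filters, limma-voom, fits to 2 groups and fits without each library.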

Additional observations from a re-analysis of the deposited data

How the results depend on the processing

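Members called higher in A-C than in C numbered 10 and lower 3; in the TPM as deposited these were 18 and 1, and the median change of the members, 0.20 log2, was 0.43. For M against C, 9 and 3 became 16 and 0, and the median of 0.04 became 0.31. Since that scaling also moved the median of all tested genes to 0.22 and 0.27, it shifted the genes together. Median-of-ratios scaling, a pseudocount of 0.1, no filter, a TPM minimum of 5, limma-voom and fits to 2 groups gave 8 to 10 higher and 3 to 4 lower for A-C against C, and 7 to 9 and 2 to 3 for M against C. No member was called for M against A-C under any of these settings.

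Leaving out 1 library gave 3 to 11 higher and 0 to 4 lower for A-C against C, with medians of 0.07 to 0.29, and 0 to 10 higher and 0 to 6 lower for M against C, with medians of -0.11 to 0.09; the causes were not tested. For M against A-C it gave 0 and 0, with medians of -0.12 to -0.06, and the log2 ratio of Psmb9 to Psmb6, -0.04, ranged from -0.54 to 0.34. The other log2 ratios to the constitutive partner kept their sign without each library and as a ratio of TPM + 1. Fits that leave 2 libraries in a group have less precision. Members had between 104 and 9098 reads in a library apart from Psma8 and Psmb11, so depth limits chiefly Psmd10 and Psmb9. No paired analysis was possible because the groups share no replicate number.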

Other observations

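Ubiquitin and p97 genes, listed with the proteasome genes, numbered 11 tested members. Against C, A-C had 2 of them higher with 0 lower (median 0.35 log2), while M had 3 higher with 1 lower (median 0.43). As background, limma placed 9.71% of the whole tested set above C and 7.17% below it for A-C (median 0.03 log2). For M the background was 9.31% above C and 6.72% below it (median 0.05). Nploc4, which encodes a cofactor of the p97 ATPase, rose from 14.03 ± 2.69 (C) to 32.2 ± 2.59 (A-C) and 27.6 ± 3.53 (M) (limma adjusted p = 0.00536 and 0.0128). The chaperone-linked ubiquitin ligase gene Stub1 stood at 8.002 ± 1.25, 14.9 ± 0.971 and 12.3 ± 0.620 (adjusted p = 0.00728 and 0.0242), and in M the calls of Nploc4 and Stub1 held in 7 and 4 of 9 fits with a library left out. The polyubiquitin gene Ubb stood at 537 ± 79.5, 838 ± 104 and 768 ± 200 and did not pass (adjusted p = 0.0709 and 0.142). Uba1, the main ubiquitin-activating enzyme gene, rose in M from 46.2 ± 2.21 to 65.0 ± 5.63 (adjusted p = 0.0337), a call that held in 3 of those 9 fits, and stood at 57.2 ± 3.81 in A-C (adjusted p = 0.117).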
